A study of Mus musculus with 74 samples.

Results

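The nuclear genes of the mitochondrial respiratory chain and of ATP synthase were followed through the first 120 h of T helper cell differentiation. The members were chosen by gene symbol alone, namely every symbol on the array starting with Ndufa, Ndufb, Ndufc, Ndufs, Ndufv, Sdh, Uqcr, Cox4, Cox5, Cox6, Cox7, Cox8 or Atp5, without the Ndufaf genes, and each gene was read by its probe with the highest mean log2 intensity over all 74 arrays. This rule found 83 of the 19031 genes that had a probe with a single symbol: 36 of complex I, 8 of complex II, 7 of complex III, 16 of complex IV and 16 of complex V. Of these, 78 were among the 13776 genes tested, that is, the mean of their probe exceeded 6.77, the median log2 intensity of all probes and arrays, in at least 1 condition. The 5 others, Ndufs1, Sdha, Cox4i2, Cox7b2 and Cox8c, had a single dim probe each, and their highest condition means lay between 6.46 and 6.70. Ndufs1 and Sdha encode catalytic subunits of complexes I and II, and they are not described further because their probes gave no usable level. Sdhaf1, Sdhaf2, Sdhaf3 and Sdhaf4 entered through the prefix although they encode assembly factors of complex II, and Ndufs5-ps carries the symbol of a pseudogene.

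The respiratory chain sits in the inner mitochondrial membrane. Complex I takes electrons from NADH and complex II takes them from succinate, ubiquinol carries them to complex III, cytochrome c carries them on to complex IV, and complex IV passes them to oxygen. Complexes I, III and IV pump protons, and complex V, the ATP synthase, lets the protons flow back to make ATP. Complexes I, III, IV and V are built from subunits of nuclear and of mitochondrial DNA, whereas complex II is encoded in the nucleus alone. T cells that leave quiescence are known to raise both glycolysis and respiration while they grow and start to divide.

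Naive CD4+ T cells with high CD62L from the spleen and lymph nodes of Balb/c mice, 5–8 weeks old, were isolated by magnetic sorting and stimulated in all cultures with antibodies to CD3 and CD28. Th0 cultures received blocking antibodies to IFN-γ, IL-4 and IL-12, Th1 cultures received IL-12 and anti-IL-4, Th2 cultures received IL-4 with anti-IL-12 and anti-IFN-γ, and hybrid Th1/2 cultures received IL-12 together with IL-4. RNA was taken at 0, 3, 6, 12, 24, 35, 48, 73, 96 and 120 h, in 2 independent experiments, which gave 2 naive arrays at 0 h and 2 arrays for each culture at each later time. Times were also averaged into an early window (3 to 12 h, 24 arrays over the 4 cultures), a middle window (24 and 35 h, 16 arrays) and a late window (48 to 120 h, 32 arrays). Every comparison with 0 h shares the same 2 naive arrays, and neighbouring steps share the window between them, so that these comparisons are not independent of each other.

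The T helper markers were measured above threshold (6 of 6), and the log2 of their summed intensities was 16.6 to 16.8 in the naive arrays and 15.5 to 16.6 in the late arrays. For 2 CD8 T cell markers, 1 of them above threshold, the same measure was 11.7 to 12.4 in naive and 11.7 to 12.9 in late arrays. Markers of some other cells differed between 0 h and later arrays. The level of 2 erythroid markers (log2 of their summed intensities) was 11.6 to 12.3 in naive and 7.36 to 8.13 in late arrays, that of 5 myeloid markers, 3 of them above threshold, was 10.3 to 10.9 against 8.73 to 8.93, and that of 2 B cell markers was 9.55 to 10.1 against 7.92 to 9.54. The erythroid, myeloid and B cell markers also fell within the culture, to differing extents. From 3 to 12 h Hba-a1 fell by 1.98, Lyz2 by 2.27 and Cd79b by 1.21, the largest falls of their lists. The other tested markers changed less, Alas2 by -0.28, Cd14 by -0.60, Csf1r by -0.46 and Ms4a1 by -0.02 (limma adjusted p = 0.889). The summed erythroid level went from between 11.6 and 12.3 to between 9.43 and 10.4. From the early to the middle window Hba-a1, Lyz2 and Cd79b fell by 2.99, 1.48 and 0.78. Alas2, Cd14, Csf1r and Ms4a1 changed by -0.26, -0.34, -0.10 and -0.24. The part of these cells in the differences described below was not tested. In whole cultures, fewer cells of a type and less RNA per cell cannot be told apart. Array medians lay between 106.7 and 111.07 intensity units, and 2 arrays stood apart from the other cultures of their time and experiment, with at least 2-fold differences in 405 genes for the 12 h Th1/2 array of experiment 1 and in 720 genes for the 96 h Th0 array of experiment 2. Among these were 4 members in the former (Atp5a1, Atp5md, Cox7a2l and Ndufb9) and 1 in the latter (Cox7a2l).

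Nuclear respiratory genes are known as targets of the transcription factors NRF1, GABP (an ETS factor), YY1 and ERRα, so the RefSeq promoters of the members (GRCm38.p6, from 250 bases before to 50 bases after the start) were searched on both strands for 1 string of each. The strings were the consensus of NRF1, whose matches the capitals below spell out, CCGGAAGT for ETS, AAGATGGC for YY1 and TCAAGGTCA for ERR, and none of them contains another. A promoter was matched for 67 of the 78 tested members, with 72 promoters in all. The NRF1 string was in 18 of the 72 promoters (25%) and in 4.6% of all 32851 promoters of the same length. The YY1 string was in 10 member promoters (13.9%, against 2.75% of all), the ETS string in 4 (5.56%, against 3.89%) and the ERR string in 2 (2.78%, against 0.423%), those of Sdhd and Atp5g3. Of the 10 YY1 matches, 8 lay after the start, as did a match in 41.3% of all promoters with the string. Stretches of 60 bases are printed for 1 or 2 members of each complex, 5′ to 3′ along the gene's strand, to show how the match sits in its flank; capitals mark the NRF1 string, or in Uqcr11 the ETS string. They are read from the minus strand of chr9:50603894-50603953 (Sdhd, first motif base 79 bases before the start), chr2:36049339-36049398 (Ndufa8, 30 bases), chr13:73328483-73328542 (Ndufs6, 16 bases), chr5:115349041-115349100 (Cox6a1, 117 bases), chr15:102671055-102671114 (Atp5g2, 42 bases) and chr10:80406853-80406912 (Uqcr11, 66 bases).
Ndufa8: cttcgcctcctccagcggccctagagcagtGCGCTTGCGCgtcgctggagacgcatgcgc
Ndufs6: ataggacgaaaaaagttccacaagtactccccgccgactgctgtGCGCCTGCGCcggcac
Sdhd: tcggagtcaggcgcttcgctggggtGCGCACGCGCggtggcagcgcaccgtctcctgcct
Uqcr11: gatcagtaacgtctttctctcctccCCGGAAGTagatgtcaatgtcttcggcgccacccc
Cox6a1: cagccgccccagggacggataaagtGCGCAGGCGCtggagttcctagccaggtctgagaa
Atp5g2: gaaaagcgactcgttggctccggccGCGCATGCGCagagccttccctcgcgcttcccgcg

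Most transcripts of the respiratory chain were level with naive cells or lower at 3 h and then rose between 3 and 12 h. The median rose over these hours in every complex and in every culture. The median of all members then stayed near its 12 h level to 48 h and declined in part towards 120 h, while the medians of complexes II and IV went on rising to 48 h, from 0.31 to 0.57 and from 0.30 to 0.62. The median difference of the 78 members from 0 h, over the 4 cultures, went from -0.09 at 3 h over 0.25 at 6 h to 0.59 at 12 h on the log2 scale. It lay between 0.56 and 0.61 from then to 48 h and had declined to 0.49 by 73 h, to 0.31 by 96 h and to 0.28 by 120 h. The median of all genes tested stayed between -0.00 and 0.04. Only 22 of the 78 members were above 0 h at 3 h (28.2%, against 49.6% of all genes). At 12 h 66 were (84.6%, against 54.2%), and at 120 h 62 still were (79.5%, against 51.4%). The highest of the 10 time means was at 12 h in 27 members (34.6%, against 9.63% of all genes). The lowest was at 3 h in 43 members, and the share of all genes lowest at 3 h was not determined.

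**Figure D1:**
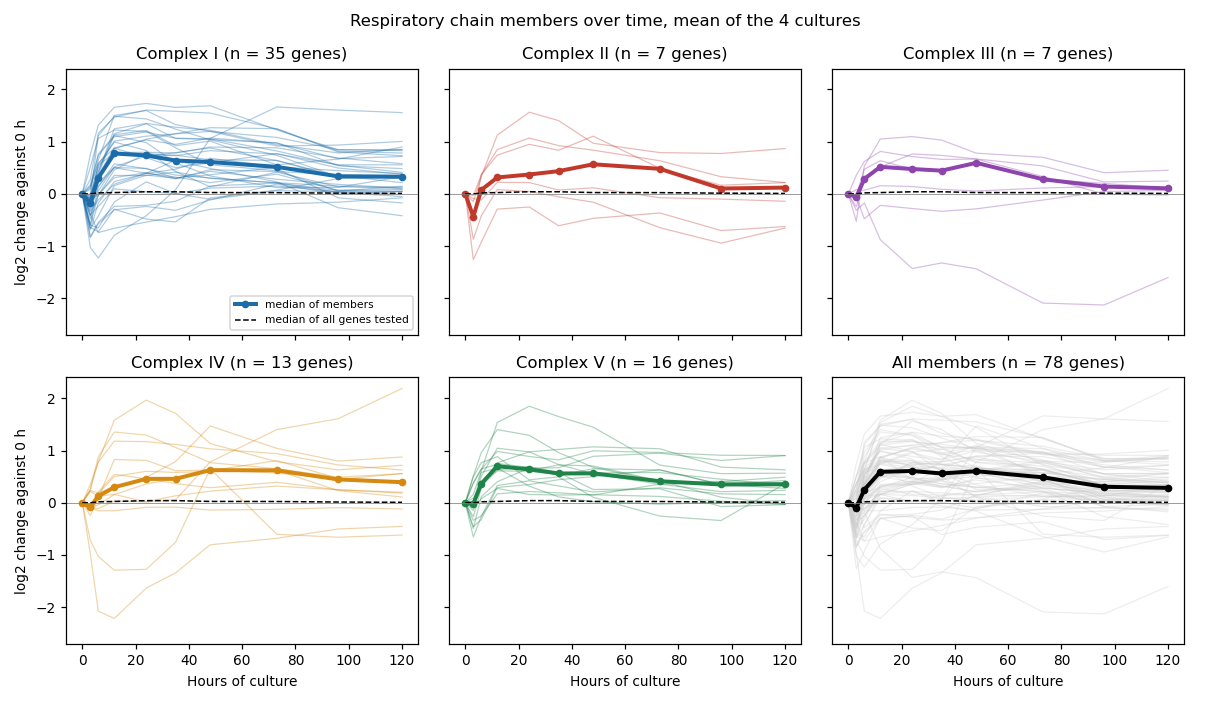
Change from 0 h (log2, mean of the 4 cultures and both experiments) against hours of culture, for each complex and for all members together. Thin lines are single members, the thick line is their median and the dashed line is the median of all genes tested; the median of all members goes from -0.09 at 3 h to 0.59 at 12 h and 0.28 at 120 h.

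At 3 h, 7 members were higher and 26 were lower than at 0 h (limma, adjusted p under 0.05), where 15.7% of all genes were higher and 21.6% were lower. Without the naive array of experiment 2 the 7 fell to 1, and without that of experiment 1 the 26 fell to 18. From 3 to 12 h, 66 of the 78 members rose and 4 fell, against 28.5% and 23% of all genes. This comparison and that at 3 h were chosen after seeing the data. The arrays of a time come from 2 experiments but were fitted as independent, although residuals of cultures at the same time correlated (median 0.66 in the members). Standard errors and p-values of changes averaged over the 4 cultures, here and below, are therefore likely too small. In complex I 33 of 35 members rose, in complex II 7 of 7, in complex III 4 of 7, in complex IV 7 of 13 and in complex V 15 of 16, with medians of 0.91, 0.95, 0.45, 0.25 and 0.70. All 8 arrays at 12 h lay above all 8 arrays at 3 h for 61 members (78.2%, against 17.1% of all genes), and all 8 lay below for 2 members (2.56%, against 11.9% of all genes). Leaving out any culture in 1 experiment kept the number of members that rose at 66 or 67.

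The largest rise from 3 to 12 h was that of Uqcr11, which encodes a small accessory subunit of complex III. Its log2 level in the 8 arrays ran from 11.52 to 11.95 at 3 h, with a median of 11.82, and from 13.19 to 13.57 at 12 h, with a median of 13.30. The groups did not overlap, and the difference was 1.58 ± 0.09 (SE, adjusted p = 6.81e-19), or 2.99-fold. Ndufa12, an accessory subunit of complex I, went from 11.40 to 12.16 (median 11.81) at 3 h to between 13.19 and 13.47 (median 13.28) at 12 h, a rise of 1.53 ± 0.10 (adjusted p = 3.24e-17). Ndufc2, a membrane arm subunit of complex I, lay between 11.47 and 11.91 at 3 h and between 12.93 and 13.17 at 12 h, a rise of 1.36 ± 0.07 (adjusted p = 5.46e-20), so that its 3 h and 12 h arrays were likewise separate. Each of these 3 genes had its lowest time mean at 3 h. Uqcr11 had fallen by 0.53 from 0 h (adjusted p = 0.00227) and Ndufc2 by 0.48. The members that fell from 3 to 12 h were Cox7a2l, Cox6a2, Uqcrq and Ndufb11. Those that passed in neither direction were Atp5k, Cox4i1, Cox6b2, Cox7a1, Cox8b, Ndufv3, Uqcrfs1 and Uqcrh.

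Members rose both with and without a motif match. Of the 17 members with an NRF1 match 16 rose from 3 to 12 h, with a median of 0.75, and of the 50 members with a promoter but no match 42 rose, with a median of 0.80. All 10 members with a YY1 match rose, with a median of 0.83, and of the 57 without it 48 rose, with a median of 0.78. Among all genes 28.5% rose.

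Most members were higher in the middle window than in the early window, and most fell at the step after it. The early mean includes the low 3 h arrays, so the first of these steps does not show a rise beyond 12 h. For 12, 24 and 35 h the median difference of all members from 0 h was 0.59, 0.61 and 0.56. By 35 h the medians of complexes I, III and V lay below their 12 h level, those of II and IV above it. In the early window as a whole 31 members were higher and 13 lower than at 0 h (20.9% and 22.6% of all genes). Of the 1378 genes with the brightest probes, which included 52 members, 41.9% were higher and 29% lower in that window. Of those 52 members 21 were higher, near the share of the bright genes, and 8 were lower. From the early to the middle window 61 rose and 2 fell (30.5% and 28.5% of all genes), and those 2 were Uqcrq and Atp5mpl, the gene of a small proteolipid of ATP synthase, which fell by 0.20 (adjusted p = 0.000237). With the experiment as a block within each time point 4 members fell at this step. From the middle to the late window 14 rose and 47 fell (28.3% and 31.9% of all genes). Of the bright genes 42.6% rose and 38.2% fell from the early to the middle window, against 45 and 1 of the 52 members. At the later step 36.3% of the bright genes rose and 46.7% fell, against 10 and 29 of the 52 members. The fall was broad in complex I (21 of 35), complex II (6 of 7), complex III (5 of 7) and complex V (11 of 16), while in complex IV 6 members rose and 4 fell.

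In the late window the members were still mostly above naive cells. In the mean over the 4 cultures 46 of 78 (59.0%) were higher and 4 (5.13%) were lower than at 0 h, where 22.9% of all genes were higher and 23.3% lower. The median difference was 0.41, against 0.02 over all genes, and it was 0.28 in experiment 1 and 0.47 in experiment 2, with 60 of the 78 members above 0 h in both. Among the 1378 genes with the brightest probes, which included 52 members, 38.2% were higher and 28.5% lower, and of those 52 members 33 were higher and 1 was lower. In complex I 21 members were higher and 0 lower, in complex II 4 and 2, in complex III 3 and 1, in complex IV 9 and 1 and in complex V 9 and 0. All 32 late arrays lay above both naive arrays in 27 members (34.6%, against 11.4% of all genes) and below both in 2 (2.56%, against 11.9%).

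**Figure D2:**
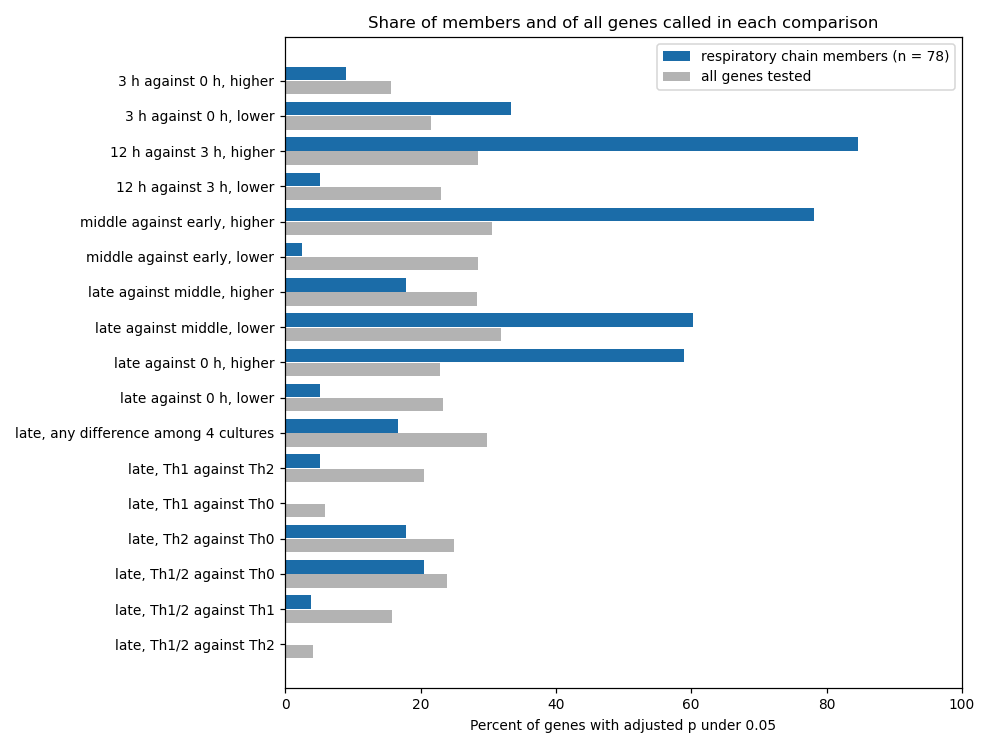
Share of the 78 tested members and of all 13776 genes (percent) with an adjusted p under 0.05 in each of 17 comparisons. Members exceed all genes among those higher in the late window (59.0% against 22.9% in the mean of the 4 cultures) and lie below all genes in the late differences among cultures (16.7% against 29.8%), where a block for experiment within time points, not drawn, gives 42.3% against 43.8%.

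The 4 cultures gave similar counts on their own. Of the 78 members, 47 were higher and 4 lower in Th0 (21.3% and 20.8% of all genes), 43 and 4 in Th1 (21.7% and 22.1%), 45 and 4 in Th2 (22.1% and 23.2%) and 46 and 4 in Th1/2 (22.1% and 23.3%). Without the naive array of experiment 2 the numbers higher were 36, 30, 29 and 28. In all 4 cultures 40 members were higher (16% of all genes) and 4 were lower (17.4% of all genes), namely Cox7a2l, Uqcrq, Sdhaf1 and Sdhaf4. Genes were called kinetic in a culture where limma's F-test over time passed and the change from 0 h was at least 2-fold in 1 direction, up or down, at 2 consecutive times. By this criterion 32 members (41%) were kinetic in at least 1 culture (33.5% of all genes) and 20 (25.6%) in all 4 (22.5% of all genes), shares not far from those of all genes. The number was 25 in Th0, 24 in Th1, 24 in Th2 and 29 in Th1/2, against 26.5%, 27.2%, 28.4% and 29% of all genes.

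**Figure D3:**
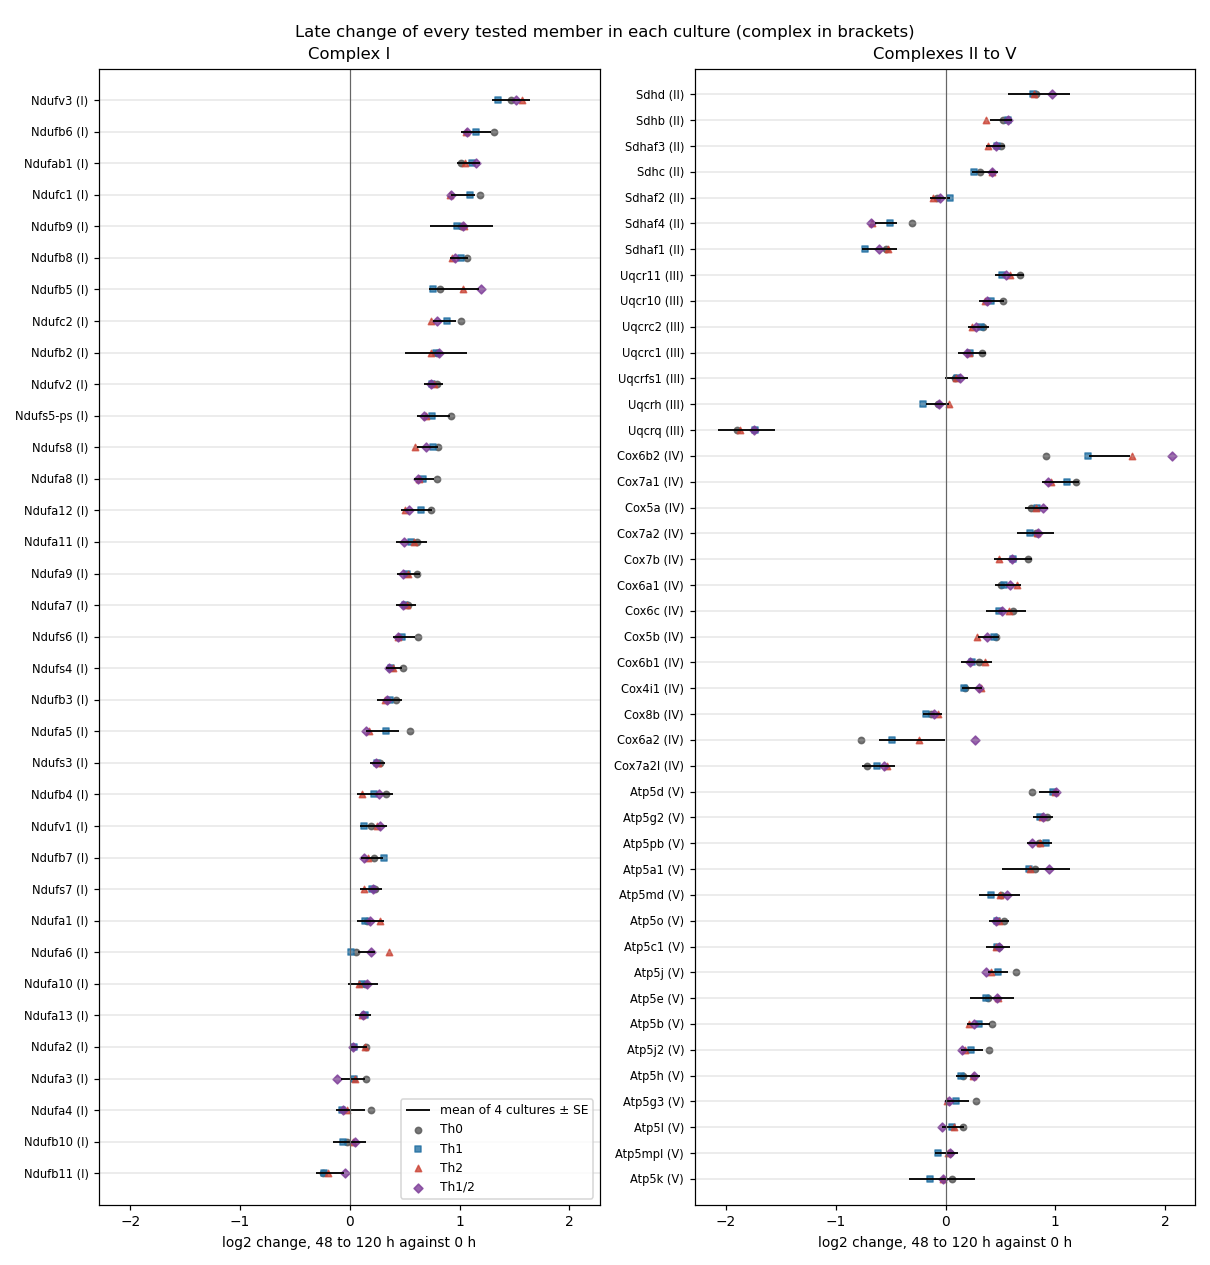
Late window minus 0 h (log2) for each of the 78 members, by complex; points are the 4 cultures, and the line is their mean ± SE of the fit. Most members lie to the right of 0, with Ndufv3 and Cox6b2 at the upper end and Uqcrq, at -1.81, at the lower end.

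Complex I was higher in the late window by a median of 0.49. Ndufv3, an accessory subunit of the arm that oxidizes NADH, had the largest rise of the complex but took a course of its own. Its log2 level was 12.86 and 12.50 in the 2 naive arrays, 11.18 to 12.23 in the early arrays (median 11.64), 11.89 to 13.17 in the middle arrays (12.52) and 13.48 to 14.53 in the late arrays (14.23). The early arrays all lay below and the late arrays all above the naive arrays. Ndufv3 fell by 1.02 ± 0.19 within 3 h (adjusted p = 1.77e-05) and rose by 1.64 ± 0.07 from the middle to the late window (adjusted p = 3.69e-23). In the late window it was 1.47 ± 0.17 above 0 h (2.77-fold, adjusted p = 1.37e-09), with 1.30 and 1.65 in the 2 experiments. Its 3 probes all rose in the late window, by 1.47 and 1.58 for the brighter probes and by 1.1014 for the third.

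Several accessory subunits of complex I rose early and were still higher late. Ndufab1, the mitochondrial acyl carrier protein, which is also a subunit of complex I, was at 12.04 and 11.82 in the naive arrays and between 12.52 and 13.71 in the late arrays (median 12.96). All late arrays were above both naive arrays, and the difference was 1.08 ± 0.10 (adjusted p = 5.98e-12). Ndufb6 was already 1.24 ± 0.14 above 0 h in the early window (adjusted p = 4.99e-10) and 1.15 ± 0.14 above it in the late window (adjusted p = 2.43e-09), with naive levels of 12.02 and 11.69 and late levels of 12.34 to 13.81. Ndufc1 rose by 1.03 (naive 12.09 and 11.60, late 12.29 to 13.32) and Ndufc2 by 0.86 (naive 12.24 and 12.15, late 12.54 to 13.47), and their late and naive arrays did not overlap.

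Of the 5 core subunits of complex I that were tested, 3 were higher in the late window. Ndufv2, an iron-sulfur subunit that works beside the NADH site, was higher by 0.76 ± 0.09 (adjusted p = 9.27e-10), Ndufs8 by 0.71 ± 0.10 (adjusted p = 3.02e-08) and Ndufs3 by 0.25 (adjusted p = 0.00152). Ndufv1, which binds NADH, differed by 0.21 (adjusted p = 0.169), and Ndufs7 by 0.19 (adjusted p = 0.125). Ndufs7 nevertheless moved in between, down by 0.59 at 3 h and up by 1.16 from 3 to 12 h. Ndufb11 had the lowest late difference of the complex, -0.18 (adjusted p = 0.256), from naive levels of 8.34 and 8.42. Ndufa4, first described with complex I and now known as a subunit of complex IV, rose by 1.12 from 3 to 12 h. It fell by 0.70 from the middle to the late window. Its mean difference from 0 h over the late window was 0.01 (adjusted p = 0.966), going from 0.49 at 48 h to -0.42 at 120 h. Ndufa5, a matrix arm subunit, likewise rose and then fell, 0.93 above 0 h in the early window and down by 0.74 at the last step.

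The measured subunits of complex II were higher late, and its assembly factors moved in both directions. Sdhd, a membrane anchor, was at 8.02 and 8.83 in the naive arrays, 8.09 to 10.32 in the early arrays (median 8.74), 9.28 to 10.24 in the middle arrays (9.98) and 8.52 to 10.22 in the late arrays (9.23). It rose by 1.28 from 3 to 12 h (adjusted p = 2.49e-07) and by 1.05 from the early to the middle window, and fell by 0.63 afterwards. In the late window it was 0.85 ± 0.28 above 0 h (adjusted p = 0.0107). The naive arrays differed from each other by almost as much, and the late difference was 1.4953 in experiment 1 and 0.21 in experiment 2. Sdhb, the iron-sulfur subunit, was higher by 0.50 (adjusted p = 4.63e-05, naive 11.11 and 10.94), and Sdhc, the other anchor, by 0.36 (adjusted p = 0.0126).

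Of the assembly factors, Sdhaf1 and Sdhaf4 were lower late, Sdhaf3 was higher and Sdhaf2 differed by -0.05 (adjusted p = 0.721). Sdhaf4, which acts on the flavin-carrying subunit, was at 10.96 and 10.68 at 0 h and between 9.44 and 9.70 in the 8 arrays at 3 h, which did not overlap. It fell by 1.26 ± 0.11 (adjusted p = 4.78e-13), recovered by 0.97 from 3 to 12 h and was 0.54 ± 0.10 below 0 h in the late window (adjusted p = 9.18e-06). Sdhaf1, which helps to insert iron-sulfur clusters into Sdhb, was at 11.27 and 12.03 in the naive arrays and at 10.46 to 11.73 in the late arrays, a fall of 0.60 ± 0.16 (adjusted p = 0.00183). Sdhaf3 was 0.45 ± 0.08 above 0 h.

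Complex III had 3 members higher and 1 lower in the late window, with a median of 0.24. Uqcr11, the gene with the largest rise from 3 to 12 h, was at 12.46 and 12.12 in the naive arrays and between 12.27 and 13.45 in the late arrays, 0.58 above 0 h (adjusted p = 0.000221), with some overlap. Uqcrc2 was 0.30 and Uqcr10 0.42 above 0 h (adjusted p = 0.0092 and 0.00267), whereas Uqcrc1, the other core protein, differed by 0.24 (adjusted p = 0.116) and Uqcrfs1, the Rieske iron-sulfur protein, by 0.10 (adjusted p = 0.459). Uqcrh, the hinge protein, was at 14.69 and 14.67 at 0 h and differed by -0.07 (adjusted p = 0.609).

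Uqcrq, a small subunit of complex III, was the member with the largest fall. Its level was 11.16 and 11.53 in the naive arrays, 10.22 to 11.49 in the early arrays (median 10.99), 9.64 to 10.26 in the middle arrays (9.95) and 8.87 to 10.46 in the late arrays (9.36). Every middle and late array was below both naive arrays. It fell by 0.92 from the early to the middle window (adjusted p = 3.25e-09), by 0.44 after that (adjusted p = 0.000591) and was 1.81 ± 0.26 below 0 h in the late window (adjusted p = 1.43e-07), with -1.93 and -1.70 in the 2 experiments. At 120 h the experiments stood apart, with 9.0009 to 9.1987 in experiment 1 and 10.323 to 10.461 in experiment 2. A second, dim probe with a mean log2 level of 6.67 changed by 0.04, so the fall rests on 1 probe.

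Complex IV had the largest median late difference, 0.55. Its catalytic core is encoded by mitochondrial DNA, and the nuclear members surround it. Cox5a was higher by 0.83 ± 0.11 and Cox5b by 0.39 ± 0.10 (adjusted p = 0.000782). Cox4i1, an early-assembling subunit, was at 13.96 and 13.87 in the naive arrays and 13.88 to 14.41 in the late arrays, which overlapped, a rise of 0.24 (adjusted p = 0.0267). Cox7a2, the widely expressed isoform of subunit 7a, was at 8.48 and 8.83 at 0 h. It rose by 0.96 from the early to the middle window and fell by 1.02 afterwards (adjusted p = 1.54e-16). In the late window it was 0.82 above 0 h (adjusted p = 8.62e-05).

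Among the isoforms known mainly from muscle or testis, Cox7a1 and Cox6b2 rose late. Cox7a1, the heart and muscle isoform of subunit 7a, was at 7.53 and 7.67 in the naive arrays, 7.56 to 8.30 in the early arrays, 7.79 to 8.89 in the middle arrays and 7.99 to 9.80 in the late arrays (median 8.68). All late arrays exceeded both naive arrays, by 1.05 ± 0.17 in the mean (2.07-fold, adjusted p = 1.7e-06). Cox6b2, the testis isoform of subunit 6b, was at 6.72 and 6.70 at 0 h, just below the threshold of 6.77, stayed between 6.46 and 7.29 to 35 h and lay between 7.16 and 10.21 in the late arrays (median 8.06). Measured against that threshold its late mean was at least 2.71-fold higher (fitted difference 1.495 ± 0.19, adjusted p = 6.42e-09), without overlap, while its second, dim probe (mean 6.79) changed by 0.11. The widely expressed partner Cox6b1 differed by 0.28 (adjusted p = 0.0931), while its second, likewise bright probe (mean 13.24) changed by 0.54, which was not tested. Cox6a2, the heart and muscle isoform of subunit 6a, was at 7.22 and 8.57 in the 2 naive arrays, and its late difference had opposite signs in the experiments (0.56 and -1.18), with a mean of -0.31 ± 0.30 (adjusted p = 0.445). From the middle window, where its median of 6.66 was below the threshold, to the late window it rose by 0.71 (adjusted p = 4.03e-06). Its partner Cox6a1 was higher by 0.57 (adjusted p = 8.94e-05). Cox8b differed by -0.12 (adjusted p = 0.28), and Cox7b was higher by 0.62 (adjusted p = 0.00303).

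Cox7a2l, also known as Scaf1, joins complexes III and IV into supercomplexes. It ran opposite to most members from 3 to 12 h. Its level was 14.04 and 13.84 at 0 h, 12.76 to 13.20 in the 8 arrays at 3 h (median 12.96) and 10.82 to 11.90 in the 8 arrays at 12 h (median 11.86), with no overlap between any of these groups. It fell by 0.97 ± 0.16 to 3 h (adjusted p = 2.56e-06) and by a further 1.25 ± 0.10 to 12 h (adjusted p = 3.46e-14), then rose by 0.88 from the middle to the late window (adjusted p = 1.46e-16). In the late arrays it was 12.46 to 13.68, below both naive arrays, and the difference was -0.61 ± 0.15 (adjusted p = 0.000527). The lowest of its 12 h values came from the Th1/2 array of experiment 1 that stood apart, and the 7 others lay between 11.78 and 11.90.

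**Figure D4:**
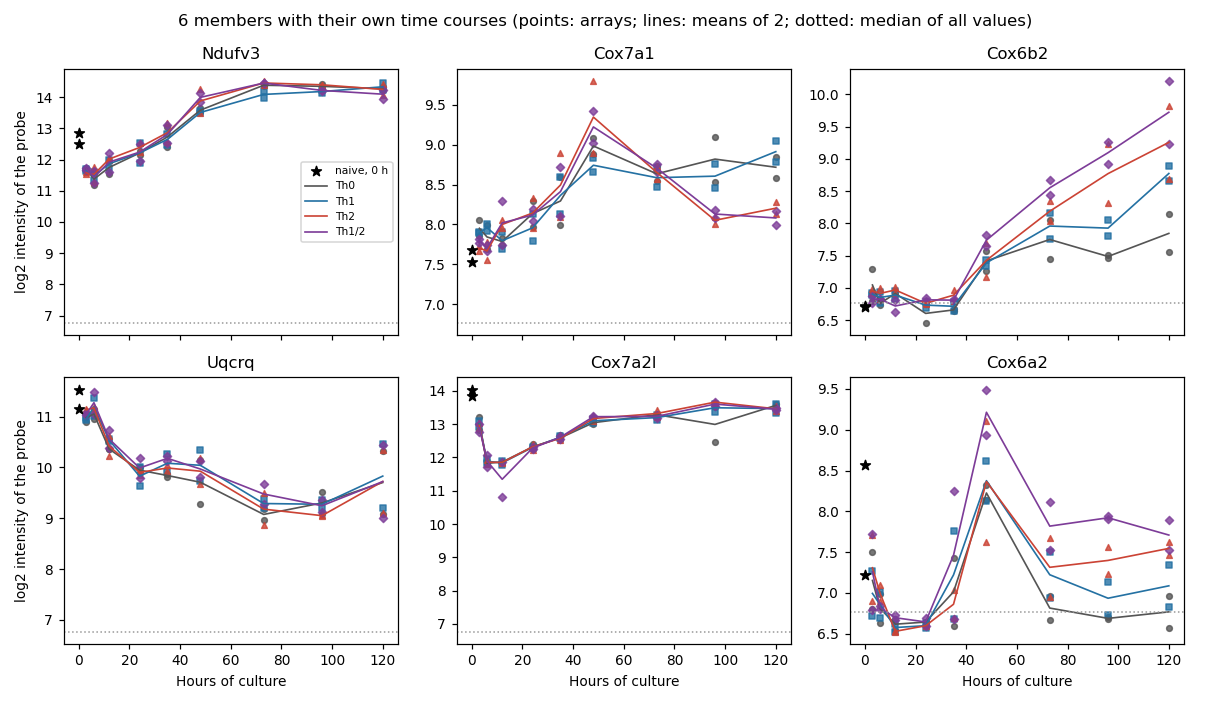
Log2 level per array against hours for Ndufv3, Cox7a1, Cox6b2, Uqcrq, Cox7a2l and Cox6a2, with cultures in colour and both experiments as points; the dotted line is the median of all values (6.77). Ndufv3 and Cox7a2l dip and recover, Uqcrq goes down, and Cox6b2 rises only from 48 h on, most in Th1/2.

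Complex V was higher by a median of 0.45 in the late window, and at 12 h all 16 members were above 0 h. Atp5d, the delta subunit of the central stalk, was at 11.93 and 11.79 in the naive arrays and 12.33 to 13.00 in the late arrays (median 12.83), a rise of 0.94 ± 0.09 (adjusted p = 7.24e-12) without overlap. Atp5c1, the gamma subunit of the same stalk, was higher by 0.48 (adjusted p = 0.000194), and Atp5e, the epsilon subunit, differed by 0.42 (adjusted p = 0.0783). The catalytic beta subunit, Atp5b, was at 15.00 and 14.87 at 0 h, 15.20 to 15.76 in the early arrays and 14.72 to 15.76 in the late arrays. Over the late window it was higher by 0.30 (adjusted p = 0.0158), but its difference from 0 h went from 0.70 at 48 h to -0.03 at 120 h.

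Atp5a1, the alpha subunit, was at 9.67 and 10.40 in the naive arrays, 9.87 to 12.52 in the early arrays, 11.35 to 12.56 in the middle arrays and 9.73 to 11.97 in the late arrays. All middle arrays were above the naive arrays, while the late arrays overlapped with them. In the late window it was 0.82 ± 0.31 above 0 h (adjusted p = 0.0279), with 1.43 and 0.22 in the 2 experiments. Its second probe, with a mean of 8.90, fell by 1.15, so the late direction of this gene is not settled. The c ring, which turns as protons pass, was measured through 2 isoform genes that encode the same mature protein. Atp5g2 was at 11.29 and 11.32 at 0 h and 11.90 to 12.53 late (median 12.20), a rise of 0.89 ± 0.09 (adjusted p = 4.11e-11), whereas Atp5g3 differed by 0.10 (adjusted p = 0.482). Atp5md, which takes part in dimers of the synthase, was 0.96 above 0 h early, fell by 0.63 at the last step and was higher by 0.50 late (adjusted p = 0.027). Atp5mpl differed by 0.01 in the late window (adjusted p = 0.947).

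Differences of members between the polarizing conditions were mostly small and were found mainly in the late window, and their number depended on whether the experiment was fitted as a block. Among the 4 cultures 0 members differed in the early window (3.18% of all genes, 1 member at an unadjusted p under 0.05), 1 in the middle window (5.39% of all genes, 4 members unadjusted) and 13 in the late window (16.7%, against 29.8% of all genes; limma F-test). With the experiment as a block within each time point these counts were 1, 6 and 33, against 7.62%, 13.4% and 43.8% of all genes. The late share of 42.3% was then close to that of all genes. Without Th0 of experiment 2 the 13 fell to 8, and without Th0 of experiment 1 they became 21. The member of the middle window was Sdhaf3, which was 0.32 ± 0.08 higher in Th1 than in Th2 (adjusted p = 0.00984). This call was lost, leaving 0 members by limma, with normexp and quantile normalization, with the mean over probes, without a filter on dim probes, with a trended robust variance and without the 2 arrays that stood apart. The 13 of the late window were Atp5d, Atp5g3, Atp5j, Atp5j2, Cox6a2, Cox6b2, Ndufa3, Ndufa4, Ndufa5, Ndufa6, Ndufc1, Ndufc2 and Sdhaf4.

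By pairs of cultures, the counts were largest where a culture with added IL-4 was set against Th0. Between Th2 and Th0, 3 members were higher and 11 lower in Th2 (25% of all genes differed, 11.1% higher and 14% lower), and between Th1/2 and Th0, 4 were higher and 12 lower in Th1/2 (23.9%, 10.1% and 13.8%). Between Th1 and Th2, 1 member was higher in Th1 (Sdhb) and 3 were lower (Cox6b2, Ndufa6 and Uqcrh), where 20.5% of all genes differed, 10.5% higher and 9.98% lower. Between Th1/2 and Th1, 3 were higher in Th1/2 (Cox6a2, Cox6b2 and Ndufa6) and 0 lower, where 15.8% of all genes differed, 7.33% higher and 8.42% lower. Between Th1 and Th0, 0 members passed limma's test (11 at an unadjusted p under 0.05), against 5.83% of all genes, 2.95% higher and 2.87% lower in Th1. Between Th1/2 and Th2, likewise 0 passed limma's test (6 at an unadjusted p under 0.05), against 4.12% of all genes, 1.8% higher and 2.32% lower in Th1/2. Without Th0 of experiment 1 the members that differed from Th0 were 27 for Th2, 25 for Th1/2 and 8 for Th1, without Th2 of experiment 1 they were 4 for Th2, and without Th1/2 of experiment 1 they were 4 for Th1/2. Between Th1 and Th2, 1 member differed without Th1 of experiment 1. With the block within time points, 29, 28, 18, 11, 8 and 4 members differed in these pairs in the order above, against 35.6%, 35%, 31%, 25.9%, 13.6% and 10.2% of all genes. These pairs share their cultures, and a difference between pairs was not tested. Only Cox6b2 and Cox6a2 reached 1.5-fold in any of the pairs.

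Cox6b2 differed most. Its late level ran from 7.26 to 8.14 in Th0 (median 7.53), from 7.34 to 8.90 in Th1 (7.93), from 7.16 to 9.82 in Th2 (8.33) and from 7.65 to 10.21 in Th1/2 (8.80). The groups overlapped, and the level rose over the window. At 120 h it was 8.14 and 7.55 in Th0, 8.90 and 8.65 in Th1, 9.82 and 8.70 in Th2 and 10.21 and 9.23 in Th1/2. At that time Th2 still overlapped with Th1 and with Th1/2. Over the window Th1/2 was 1.15 ± 0.13 above Th0 (adjusted p = 1.37e-09; 1.32 and 0.99 in the 2 experiments) and 0.77 above Th1 (adjusted p = 1.34e-05), and Th2 was 0.79 above Th0 (adjusted p = 5.2e-06). Th1 was 0.39 above Th0 (adjusted p = 0.0683, and 0.00183 with the block). Cox6a2 had medians of 6.83, 7.24, 7.59 and 7.92 in Th0, Th1, Th2 and Th1/2, and Th1/2 exceeded Th0 by 1.04 ± 0.21 (adjusted p = 0.000112) and Th1 by 0.76 (adjusted p = 0.0067). It was highest at 48 h, with 9.49 and 8.94 in Th1/2 against 8.32 and 8.13 in Th0.

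The other differences were below 1.5-fold. Ndufa6, which holds the acyl carrier protein in complex I, ran from 13.57 to 14.22 in Th2 (median 13.87), from 13.35 to 13.73 in Th1 (13.52) and from 13.41 to 13.82 in Th0 (13.58). Th1 was 0.35 ± 0.05 below Th2 (adjusted p = 8e-07; -0.36 and -0.33 by experiment), and Th2 was 0.31 above Th0 (adjusted p = 8.08e-06), although the groups overlapped. Sdhaf4 had late medians of 10.49 in Th0, 10.23 in Th2 and 10.17 in Th1/2, with Th2 lower than Th0 by 0.37 ± 0.07 (adjusted p = 3e-05) and all Th1/2 arrays (9.84 to 10.29) below all Th0 arrays (10.30 to 10.69).

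Of the 13 members, 9 had their highest late mean in Th0: Atp5g3, Atp5j, Atp5j2, Ndufa3, Ndufa4, Ndufa5, Ndufc1, Ndufc2 and Sdhaf4. The number was also 9 in each experiment, but the 13 were picked by a test on these same arrays, so this is not independent support. It was 9 without the 96 h Th0 array of experiment 2 that stood apart, in which the members' median was 0.28 above the other cultures. The share highest in Th0 among all genes with a late difference was not determined. Without both arrays that stood apart 9 members differed between Th2 and Th0, 8 of them among the 14 above. Ndufa5 was at 12.35 to 12.99 in Th0 and 11.63 to 12.63 in Th1/2, lower by 0.40 ± 0.10 (adjusted p = 0.00306). Atp5j, the F6 subunit of the peripheral stalk, was 0.28 lower in Th1/2 than in Th0 (F-test adjusted p = 0.00267), Ndufc2 and Ndufc1 were each 0.27 lower in Th2 than in Th0 (F-test adjusted p = 0.0105 and 0.00435), and Ndufa4 was 0.26 lower in Th1/2 (adjusted p = 0.0294). Atp5d went the other way, with 12.80 to 13.00 in Th1/2 above 12.33 to 12.79 in Th0 and a difference of 0.23 (adjusted p = 0.00504), so that these 2 groups did not overlap. Sdhb was 0.20 ± 0.07 higher in Th1 than in Th2 (adjusted p = 0.0329). Over all 78 members the median late difference from Th0 was -0.06 in Th1, -0.04 in Th2 and -0.05 in Th1/2, against -0.01 over all genes in each pair. These medians turned on the Th0 arrays, being 0.01, 0.00 and 0.02 without Th0 of experiment 2 and -0.12, -0.13 and -0.11 without Th0 of experiment 1.

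The subunits encoded by mitochondrial DNA shared, as a set, neither the rise of the nuclear members from 3 to 12 h nor their higher late level. Of 8 measured, 0 were higher and 4 lower in the late window (22.9% and 23.3% of all genes), with a median of -0.41. From 3 to 12 h 1 rose and 0 fell (28.5% and 23% of all genes), with a median of -0.14, while 66 of the 78 nuclear members rose. ND4, a core subunit of complex I, was at 15.61 and 15.64 in the naive arrays and 14.60 to 15.53 in the late arrays, all below, with a difference of -0.46 (adjusted p = 0.00252). ND4L fell by 0.88 (adjusted p = 0.00343; naive 9.42 and 10.02, late 8.16 to 9.94). ATP6 fell by 0.65 ± 0.22 (adjusted p = 0.0145; naive 13.77 and 14.49) and COX2 by 0.56 (adjusted p = 0.0362; naive 13.74 and 14.45), but the naive arrays of both differed widely, and the fall was 0.18 and 0.16 in experiment 1 against 1.13 and 0.96 in experiment 2. Without the naive array of experiment 2, ND4 alone of the 4 passed (-0.45, adjusted p = 0.0472). From the middle to the late window, which needs no naive array, 6 of the 8 fell, ND1 by 0.55 (adjusted p = 4.36e-09), and ND5 rose by 0.57 (adjusted p = 0.00918). At this step 47 of the 78 nuclear members also fell and 14 rose, against 31.9% and 28.3% of all genes.

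Other mitochondrial genes shared the rise from 3 to 12 h and differed afterwards. Of 39 assembly factors of the chain 34 rose from 3 to 12 h and 0 fell, of 14 electron carriers and enzymes of ubiquinone synthesis 12 rose and 1 fell, of 16 genes of the TCA cycle and pyruvate dehydrogenase 13 rose and 0 fell, and of 6 genes of adenine nucleotide exchange and the outer membrane pore 5 rose and 0 fell, where 28.5% of all genes rose and 23% fell. In the late window, where 22.9% of all genes were higher and 23.3% lower, 16 assembly factors were higher and 5 lower than at 0 h, with Sco1, a copper chaperone of complex IV, up by 1.23 and Coa7 down by 1.30. Of the carriers 7 were higher and 1 lower. Etfb, which feeds electrons from fatty acid oxidation, rose by 1.07 and all late arrays (11.14 to 12.85) were above the naive arrays (10.999 and 10.656), while Cycs, cytochrome c, was higher by 0.46. Of the 16 TCA cycle genes 4 were higher, near the share of all genes, and 2 lower, with Fh1 up by 0.96 and Cs, citrate synthase, up by 0.76. Of the exchange and pore genes 5 were higher and 0 lower, with Vdac1 up by 1.66, from 12.25 and 12.28 to between 13.57 and 14.33. Without the naive array of experiment 2 the assembly factors lower fell to 3 and the carriers higher to 4, and without that of experiment 1 the TCA cycle genes lower fell to 0 by limma.

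The 18 regulators of mitochondrial genes were more often lower than higher late, with 3 higher and 9 lower late, against 22.9% and 23.3% of all genes, and a median of -0.40 (1 and 8 without the naive array of experiment 2). Myc, a growth factor-responsive transcription factor, was higher by 0.94 and Gabpb1, the partner of the ETS factor GABP, by 1.17. Ppargc1b, a coactivator of mitochondrial biogenesis, fell by 1.73, from 9.75 and 9.90 to between 7.59 and 9.10, all late arrays being below the naive arrays. Esrra, which encodes ERRα, fell by 0.75 and Nrf1 by 0.62, while from 3 to 12 h 7 of the 18 rose and 6 fell.

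**Figure D5:**
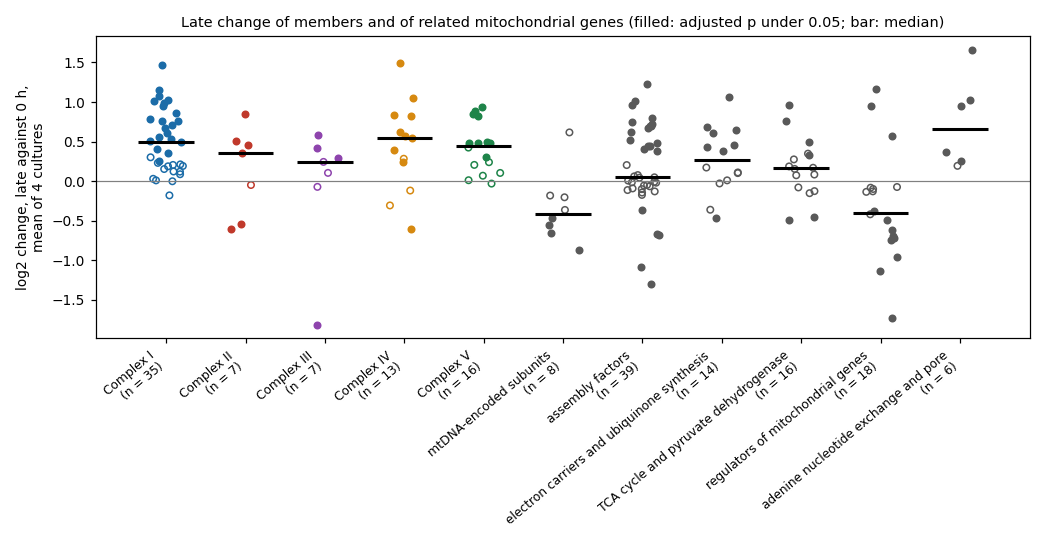
Late window minus 0 h (log2, mean of the 4 cultures) for the members by complex and for 6 related lists; each point is a gene, filled where the adjusted p is under 0.05. The nuclear complexes lie mostly above 0 (median of all members 0.41), the subunits of mitochondrial DNA (median -0.41) and the regulators (median -0.40) mostly below.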

How the data were processed

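RNA from 74 samples was amplified and hybridized to Illumina Mouse Sentrix-6 arrays. The deposited values are linear probe intensities that the authors had background-corrected and quantile-normalized, 45135 probes per array; the number of arrays limits the precision. Gene symbols came from the platform annotation, where 34773 probes had 1 symbol, 18 several (not used) and 10344 none. Intensities were log2-transformed here, each gene was read by its brightest probe, and genes were kept where a condition mean exceeded the median of all values (6.77). Cell means of 37 conditions were fitted with limma 3.58.1 (R 4.3.3) over all 74 arrays, two-sided, with Benjamini-Hochberg adjustment over 13776 genes at 0.05. The script was tested on simulated data. P-values rest on the spread between the 2 arrays of each condition, with the cultures of an experiment fitted as independent of each other.

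The experiment number pairs the arrays, since the labels give it to all cultures of an experiment: residuals of cultures at the same time correlated with a median of 0.537 (52 of 54 pairs over 0.1). The experiment entered as a block in 2 alternatives. Members and lists were chosen with earlier results of these data known. Members were named with values if they had the largest rise or fall of their complex or of a step, differed most among cultures, or were core subunits or isoforms; others in the text were named after their values were seen. Of 30 members with over 1 expressed probe, the late direction differed between probes in 6 (Atp5a1, Atp5k, Atp5pb, Ndufb8, Uqcrfs1 and Uqcrq). RefSeq promoters were matched by gene ID.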

Additional observations from a re-analysis of the deposited data

Results flagged for a closer look

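The late levels of 11 named members differed among the 4 cultures by the limma F-test, that is, their change from the shared 0 h arrays was not the same in all cultures. The range of the 4 late culture means (log2) was 1.15 for Cox6b2, 1.04 for Cox6a2, 0.40 for Ndufa5, 0.37 for Sdhaf4, 0.35 for Ndufa6, 0.28 for Atp5j, 0.27 for Ndufc2, 0.27 for Ndufc1, 0.27 for Ndufa4, 0.26 for Atp5g3 and 0.23 for Atp5d.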

How the results depend on the processing

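Counts of members changed by over 1.5 times as follows. With normexp and quantile normalization, and likewise with the mean over probes, 0 members differed among cultures in the middle window, 1 between Th1 and Th0 and 1 between Th1/2 and Th2. With arrays centred on the median, 7 were lower in the late window in Th0, 7 in Th1, and 8 fell from the early to the middle window; centring moved the late median of the members from 0.41 to 0.30 and that of all genes from 0.02 to -0.09. Without a filter, and with a trended robust variance, 0 differed in the middle window. With experiment as a replicate block, 1 differed between Th1 and Th0 and 1 between Th1/2 and Th2; with the replicate block within time points, 4 fell from early to middle, 1, 6 and 33 differed among cultures in the early, middle and late window, and 18 differed between Th1 and Th2, 8 between Th1 and Th0, 29 between Th2 and Th0, 28 between Th1/2 and Th0, 11 between Th1/2 and Th1 and 4 between Th1/2 and Th2. Blocking changed no other count of members by over 1.5 times. Without the 2 arrays that stood apart, 0 differed in the middle window and 9 between Th2 and Th0. With a late window of 73 to 120 h, 9 differed between Th1 and Th2, 1 between Th1 and Th0 and 24 between Th2 and Th0.

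Leaving out each culture, or the naive cells, in 1 experiment gave 36 to 50 members higher and 2 to 5 lower late in Th0, 30 to 44 and 3 to 5 in Th1, 29 to 48 and 3 to 4 in Th2, and 28 to 46 and 3 to 4 in Th1/2, the fewest higher always without the naive array of experiment 2. It gave 21 to 35 higher and 9 to 13 lower early, 58 to 63 and 2 to 2 from early to middle, 13 to 15 and 44 to 48 from middle to late, 1 to 8 and 18 to 26 at 3 h, 66 to 67 and 3 to 5 from 3 to 12 h, and 30 to 34 kinetic members. Among cultures it gave 0 to 0 early, 0 to 1 in the middle and 8 to 21 late (8 without Th0 of experiment 2, 21 without Th0 of experiment 1). By pair it gave 1 to 5 for Th1 and Th2 (1 without Th1 of experiment 1), 0 to 8 for Th1 and Th0 (8 without Th0 of experiment 1), 4 to 27 for Th2 and Th0 (4 without Th2 and 27 without Th0 of experiment 1), 4 to 25 for Th1/2 and Th0 (4 without Th1/2 and 25 without Th0 of experiment 1), 2 to 5 for Th1/2 and Th1 and 0 to 1 for Th1/2 and Th2.

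The late difference changed sign in 5 named members: Atp5a1 was -0.16 with the mean over probes, Atp5g3 -0.0035 with centring, Atp5mpl -0.096 with centring, -0.0037 without the arrays that stood apart and from -0.025 to 0.047 with a replicate left out, Cox6a2 from -0.98 to 0.36 with a replicate left out (0.36 without the naive array of experiment 2), and Ndufa4 -0.098 with centring, -0.0048 without the arrays that stood apart, -0.15 with the later window and from -0.21 to 0.23 with a replicate left out. The cause was not tested.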
